A study of Mus musculus with 8 samples.

Results

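Transcripts of 8 genes that earlier work had reported as bound by Dazl were followed through an RNA immunoprecipitation from mouse testis: Ddx4, Tex19, Sdad1, Tbpl1, Grsf1, Crisp2, Cdc25a and Cdc25c. They were taken by their gene name on the array, where they are 8 of 27962 gene names and carry 14 of 41174 probes. Ddx4, Tex19, Grsf1 and Crisp2 have a single probe each, Sdad1, Cdc25a and Cdc25c have 2 each and Tbpl1 has 4. Each probe was measured and tested apart from the others, because probes of a gene can report different stretches or forms of its transcript.

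Dazl is an RNA-binding protein of germ cells that recognises short uridine-rich motifs, mostly in the 3′ untranslated regions of mRNAs, and is known to recruit poly(A)-binding protein and to promote translation or stability of the mRNAs it binds. It is needed for germ cells to develop and to enter meiosis. In an immunoprecipitation without crosslinking, an mRNA that is held by the tagged protein, directly or through a shared complex, is expected to take up a larger share of the recovered RNA than it does in a mock precipitate.

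The samples came from testes of male C57BL/6 129SV mixed mice at postnatal day 14, an age at which the most advanced germ cells are in meiotic prophase. All 4 groups carried the same fusion protein, Dazl-GFP-V5, in germ cells. Input total RNA was taken with no antibody, the mock precipitate was made with normal mouse IgG, and the other precipitates were made with anti-V5 and with anti-GFP; each group has 2 arrays of Cy3-labelled RNA. The labels do not name the promoter behind the fusion or say whether untagged Dazl was still made, and nothing in them shows that the 2 replicates of a group came from different mice, so the p-values reflect only how far these samples differ, which may be technical spread. The design text names anti-PABP1 where the sample labels name anti-GFP, and the description lines of input replicate 2 and V5 replicate 1 are at odds with their titles; titles and antibodies were followed.

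On each array between 57.2% and 62.2% of 43379 non-control spots lay well above background, and the 75th percentile of the signal, to which each array was scaled, lay between 857 and 1115. Input and IgG arrays shared a slide and V5 and GFP arrays another, so for V5 or GFP against IgG or input the slide and the group cannot be told apart, whereas the contrasts of IgG with input and of V5 with GFP were each made on 1 slide. Replicates differed by a median of 0.164 on the log2 scale for IgG and by 0.079 to 0.099 for the other groups. The labelled cell type is germ cells. Of the listed markers, 4 of 6 spermatogonial, 5 of 7 spermatocyte and 7 of 7 late germ cell markers are on the array. Of these 4, 5 and 6 were kept and above background on both input arrays, but so were all 8 Sertoli, 5 Leydig, 4 myoid and 5 leukocyte markers. With the spike-in RNA as the scale in place of the 75th percentile, every probe moved alike within a comparison, and the median over all probes went from -0.177 to 0.218 for V5 against IgG, from -0.272 to 0.246 for GFP against IgG, from 0.136 to -0.688 for IgG against input, from -0.05 to -0.48 for V5 against input, from -0.092 to -0.399 for GFP against input and from 0.063 to -0.06 for V5 against GFP. The place of a probe among all probes, given below as a percentile, does not move with that choice.

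**Figure D1:**
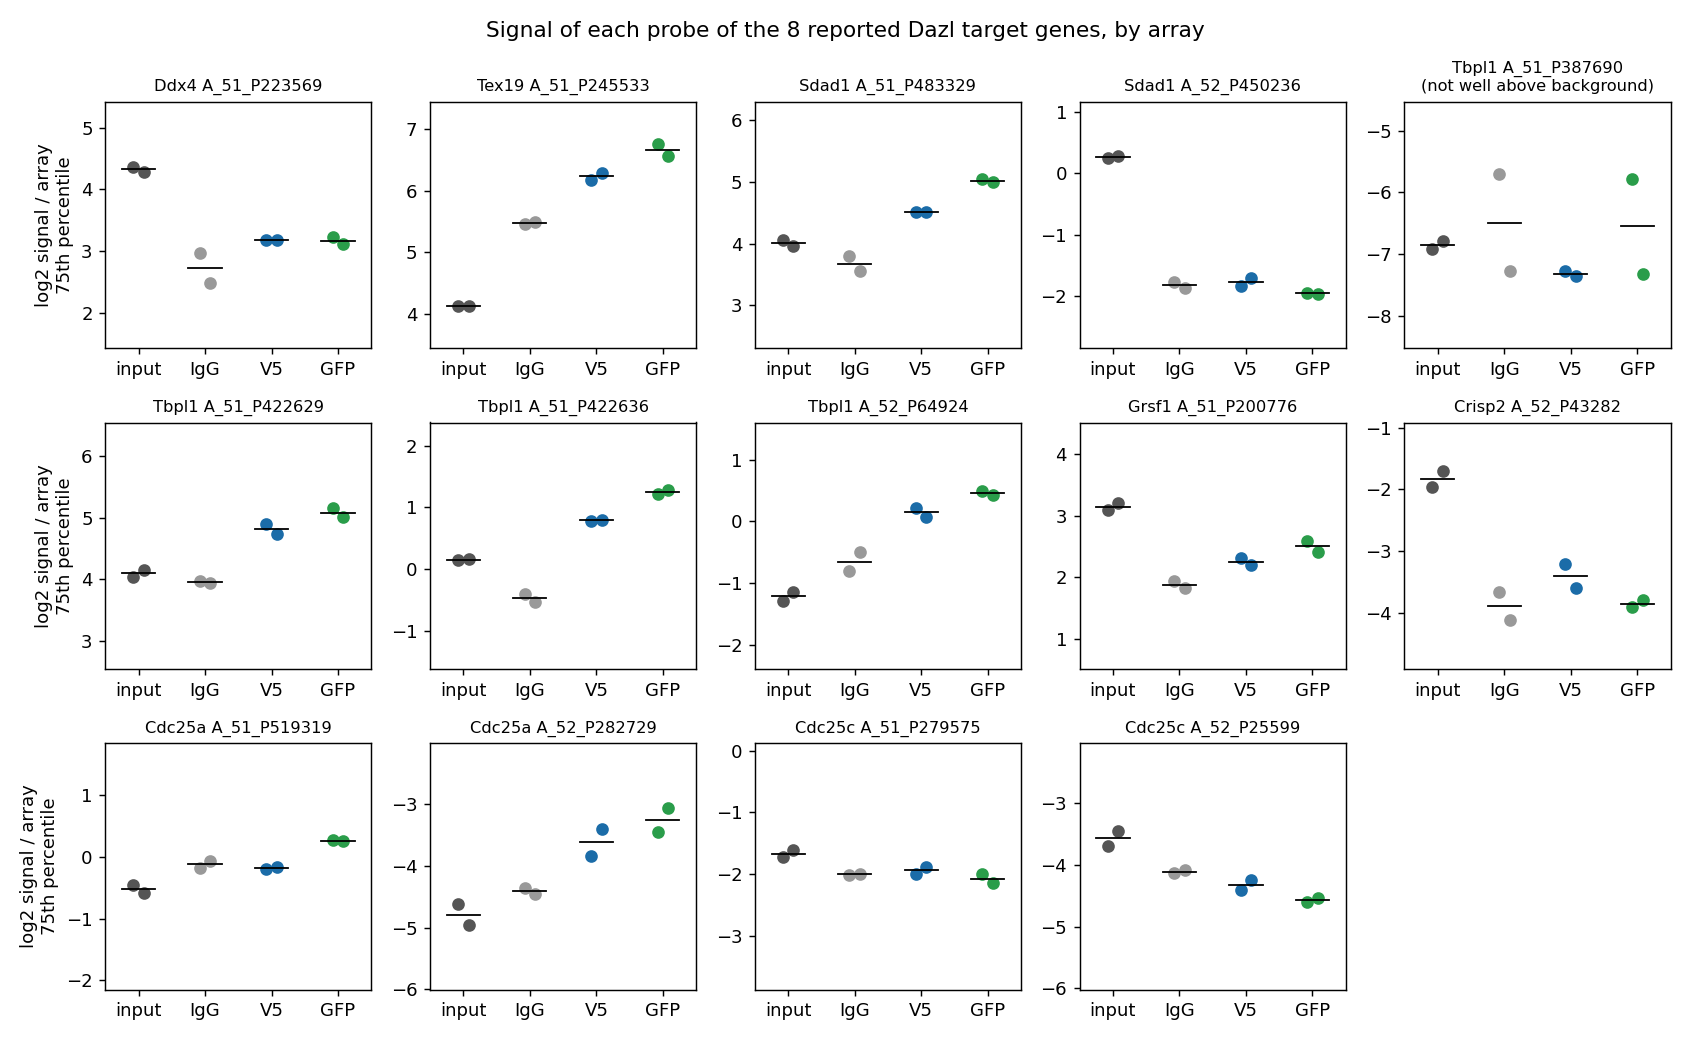
Signal of each of the 14 probes on the 8 arrays, as log2 of the signal over the array's 75th percentile; points are arrays, bars are group means, and each panel spans 4 log2 units around its own centre. Tex19, the brighter Sdad1 probe, 3 Tbpl1 probes and both Cdc25a probes are highest with GFP, Ddx4, Grsf1 and Crisp2 are highest in input, and 1 Tbpl1 probe is not well above background on any array.

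Tex19, called Tex19.1 in RefSeq, encodes a mammalian germ cell protein that is needed for male meiosis and holds transposable elements in check. Its signal was 17.5 and 17.4 times the 75th percentile on the input arrays, 43.8 and 45.2 times with IgG, 72.5 and 78.1 times with V5, and 108 and 94.8 times with GFP. No group overlapped another, and the order was input, IgG, V5, GFP. Tex19 was 1.69-fold higher with V5 than with IgG (log2 0.76 ± 0.088 SE, adjusted p = 0.00218, n = 2 arrays per group in this and every comparison) and 2.28-fold higher with GFP than with IgG (1.19 ± 0.088, adjusted p = 0.000179). Among all 25629 probes kept, these differences lay at percentiles 93.6 and 94.6. Against input the rise was 4.31-fold with V5 (log2 2.11 ± 0.088) and 5.81-fold with GFP (2.54 ± 0.088), at percentiles 99.6 and 99.8. The mock precipitate itself stood 2.55-fold above input (1.35 ± 0.088, adjusted p = 2.87e-05, percentile 94.4), which is 1.35 of the 2.11 and 2.54 log2 units by which V5 and GFP stood above input. With spike-in scaling the mock stood 0.53 above input, and V5 and GFP 1.68 and 2.23.

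Tbpl1 encodes a TBP-related transcription factor that round spermatids need. Its brightest probe, A_51_P422629, read 16.5 and 17.8 times the 75th percentile in input, 15.7 and 15.3 times with IgG, 29.6 and 26.5 times with V5, and 35.6 and 32.3 times with GFP. Both precipitates of the fusion lay above both control groups, while input and IgG lay close together (IgG against input -0.14 ± 0.091, adjusted p = 0.201, 95% interval -0.36 to 0.08; with spike-in scaling IgG was lower, -0.97, and with quantile normalization too, -0.39). The probe was 1.81-fold higher with V5 than with IgG (0.85 ± 0.091, adjusted p = 0.00177) and 2.19-fold higher with GFP (1.13 ± 0.091, adjusted p = 0.000229).

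The second Tbpl1 probe, A_51_P422636, read 1.1 and 1.12 in input, 0.759 and 0.691 with IgG, 1.72 and 1.73 with V5, and 2.32 and 2.44 with GFP, again as multiples of the 75th percentile. Its difference from IgG was the greatest of the 13 kept probes in both precipitates, 2.38-fold with V5 (1.25 ± 0.074, adjusted p = 0.000884) and 3.29-fold with GFP (1.72 ± 0.074, adjusted p = 8.65e-05), at percentile 98.7 in each. The third, A_52_P64924, read 0.41 and 0.453 in input, 0.573 and 0.706 with IgG, 1.16 and 1.05 with V5, and 1.41 and 1.35 with GFP. It was 1.74-fold higher with V5 than with IgG (0.80 ± 0.12) and 2.17-fold higher with GFP (1.11 ± 0.12). Against input the 3 probes were 1.64-, 1.56- and 2.57-fold higher with V5 and 1.98-, 2.15- and 3.2-fold higher with GFP, but they differed in the mock: IgG against input was -0.61 ± 0.074 for the second probe and 0.56 ± 0.12 for the third. With spike-in scaling the difference of the third probe in the mock turned to -0.26, and the first and second no longer passed for V5 against input (0.28 and 0.21). The fourth probe, A_51_P387690, which the array assigns to a cDNA clone rather than to the RefSeq transcript of the other 3, gave a signal of 5.52 to 19.3 on the 8 arrays, was not well above background on any of them, and was not tested.

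Sdad1 encodes a nucleolar protein with a role in ribosome biogenesis, and its probes parted company. A_51_P483329 read 16.7 and 15.5 times the 75th percentile in input, 13.9 and 11.8 times with IgG, 22.8 and 22.9 times with V5, and 33 and 32 times with GFP. The groups did not overlap, and the order was IgG, input, V5, GFP. It was 1.79-fold higher with V5 than with IgG (0.84 ± 0.095, adjusted p = 0.0021) and 2.54-fold higher with GFP (1.35 ± 0.095, adjusted p = 0.000164), and 1.42-fold and 2.02-fold higher than in input; the first of these 2 was 0.075 on the log2 scale and did not pass with spike-in scaling.

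The other Sdad1 probe, A_52_P450236, is annotated to the same RefSeq transcript. It read 1.19 and 1.21 in input, 0.294 and 0.276 with IgG, 0.281 and 0.307 with V5, and 0.261 and 0.257 with GFP. All 6 precipitate arrays lay far below both input arrays and close to each other. Input exceeded IgG by 4.21-fold, V5 by 4.08-fold and GFP by 4.63-fold, which placed the probe at or below percentile 4.3 of all probes in each comparison with input. Neither V5 (0.045 ± 0.075, adjusted p = 0.633) nor GFP (-0.14 ± 0.075, adjusted p = 0.142) passed against IgG; with spike-in scaling both did (0.44, adjusted p = 0.0126, and 0.38, adjusted p = 0.0176).

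Ddx4, the germ cell DEAD-box helicase also known as Vasa, is a long-studied mRNA target of Dazl. Its signal was 20.6 and 19.5 times the 75th percentile in input, 7.81 and 5.56 times with IgG, 9.07 and 9.06 times with V5, and 9.4 and 8.61 times with GFP. Input lay far above every precipitate; V5 and GFP overlapped, and IgG lay lowest with a wide gap between its 2 arrays. Input exceeded V5 by 2.21-fold and GFP by 2.23-fold (V5 against input -1.15 ± 0.16, adjusted p = 0.000711; GFP against input -1.16 ± 0.16, adjusted p = 0.000624), and exceeded IgG by 3.04-fold. Ddx4 was thus higher than IgG in both precipitates, 1.38-fold with V5 (0.46 ± 0.16, adjusted p = 0.0459) and 1.36-fold with GFP (0.45 ± 0.16, adjusted p = 0.0386), while remaining below its level in input. The differences from IgG rest on little: without IgG replicate 2 they were 0.21 and 0.20, and 7 of the 8 omissions of an array ended each call, the exception being IgG replicate 1.

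Grsf1 encodes an RNA-binding protein of G-rich sequences with a role in mitochondrial RNA granules. Its signal was 8.57 and 9.18 times the 75th percentile in input, 3.83 and 3.55 times with IgG, 4.96 and 4.6 times with V5, and 6.04 and 5.33 times with GFP. The groups did not overlap, in the order IgG, V5, GFP, input. It was 1.3-fold higher with V5 than with IgG (0.38 ± 0.094, adjusted p = 0.0177, percentile 83.6) and 1.54-fold higher with GFP (0.62 ± 0.094, adjusted p = 0.00147, percentile 84.4). Against input it was lower in each precipitate: input exceeded IgG by 2.41-fold, V5 by 1.86-fold and GFP by 1.56-fold. Leaving out either V5 replicate 1 or IgG replicate 2 ended the V5 call, at 0.32 in both cases.

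Crisp2, formerly Tpx-1, encodes a cysteine-rich secretory protein that is found in the acrosome and tail of sperm, cells that a testis of this age does not yet hold. Its signal was 0.257 and 0.307 times the 75th percentile in input, 0.0786 and 0.0573 times with IgG, 0.108 and 0.0823 times with V5, and 0.0665 and 0.0716 times with GFP. Both input arrays lay above all precipitates, and GFP lay within the spread of IgG. Input exceeded IgG by 4.19-fold, V5 by 2.97-fold and GFP by 4.07-fold. Against IgG neither V5 (0.49 ± 0.20, adjusted p = 0.0731, 95% interval 0.02 to 0.97) nor GFP (0.041 ± 0.20, adjusted p = 0.86, interval -0.43 to 0.51) passed. For V5 the 2 arrays lay above both IgG arrays, and the difference passed under 5 of 18 alternatives, among them spike-in scaling (0.89, adjusted p = 0.0133), quantile normalization (0.78, adjusted p = 0.0288) and the omission of IgG replicate 1 (0.72).

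Cdc25a and Cdc25c encode phosphatases that activate cyclin-dependent kinases at cell cycle transitions. Cdc25a probe A_51_P519319 read 0.732 and 0.669 times the 75th percentile in input, 0.888 and 0.96 with IgG, 0.877 and 0.898 with V5, and 1.21 and 1.2 with GFP. V5 and IgG overlapped, and GFP lay above all other arrays. It was 1.3-fold higher with GFP than with IgG (0.38 ± 0.078, adjusted p = 0.00481) but did not pass for V5 (-0.057 ± 0.078, adjusted p = 0.559, interval -0.24 to 0.13), a sign that spike-in scaling turned (0.34, adjusted p = 0.0157). Probe A_52_P282729 had a signal of only 31.67 to 134.3, and read 0.0408 and 0.0322 in input, 0.0488 and 0.0457 with IgG, 0.0702 and 0.0948 with V5, and 0.0919 and 0.12 with GFP. It was 1.73-fold higher with V5 than with IgG (0.79 ± 0.20, adjusted p = 0.0186) and 2.23-fold higher with GFP (1.16 ± 0.20, adjusted p = 0.00256); the V5 call ended without V5 replicate 2 (0.57) or IgG replicate 2 (0.74). Relative to input both Cdc25a probes were higher with V5 (1.27-fold and 2.25-fold) and with GFP (1.72-fold and 2.9-fold). For the first probe, spike-in scaling turned V5 against input to -0.088 and IgG against input from 0.40 to -0.43.

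Cdc25c probe A_51_P279575 read 0.301 and 0.328 in input, 0.247 and 0.251 with IgG, 0.25 and 0.272 with V5, and 0.249 and 0.226 with GFP. IgG overlapped both other precipitates, and the probe did not pass for V5 (0.065 ± 0.087, interval -0.15 to 0.28) or for GFP (-0.068 ± 0.087, interval -0.28 to 0.14) against IgG; with spike-in scaling both passed as higher (0.46 and 0.45). Probe A_52_P25599 read 0.0779 and 0.0921 in input, 0.0569 and 0.059 with IgG, 0.0471 and 0.0526 with V5, and 0.0412 and 0.043 with GFP. It was the only kept probe of the 13 to pass the test as lower with GFP than with IgG (-0.46 ± 0.10, adjusted p = 0.00729), at percentile 35.9 of all probes, and that call ended with quantile normalization (-0.077) and turned sign with spike-in scaling (0.055, adjusted p = 0.722). In input it exceeded V5 by 1.7-fold and GFP by 2.01-fold.

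**Figure D2:**
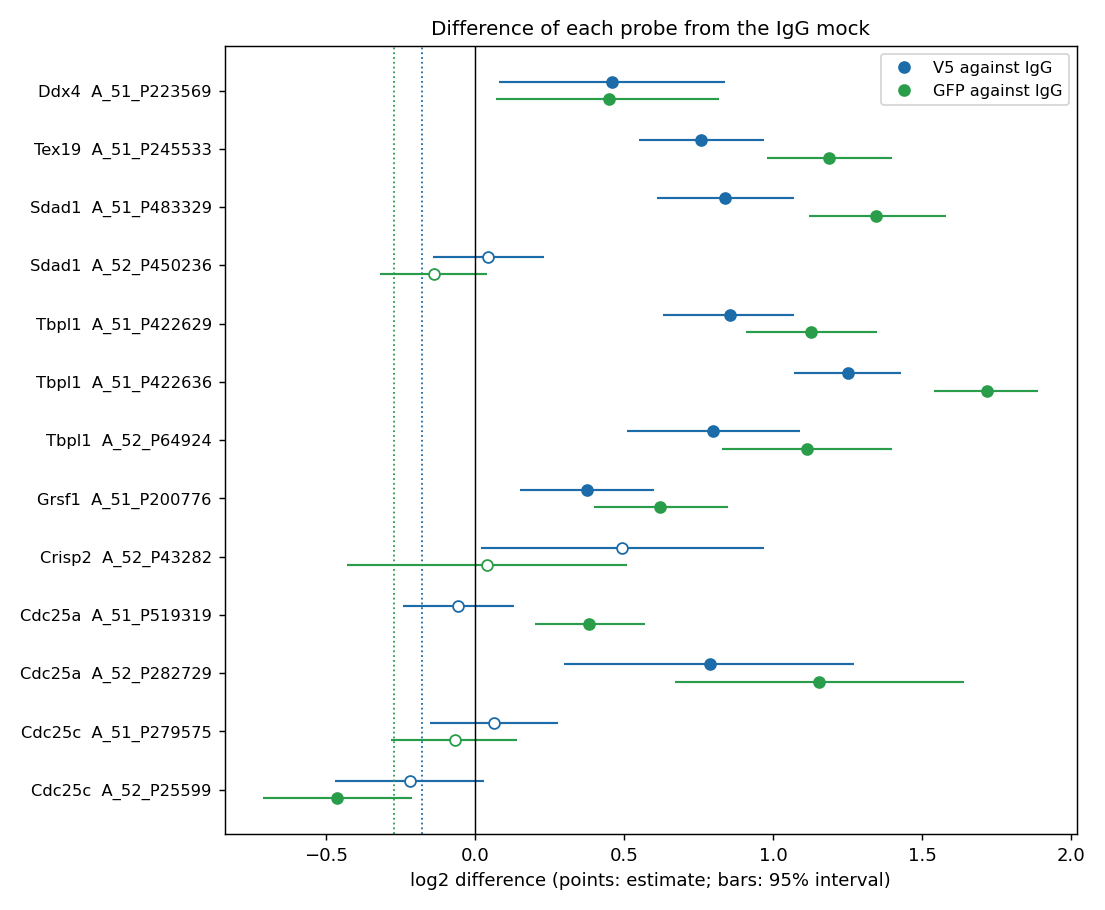
Log2 difference of each kept probe from the IgG mock with V5 and with GFP; bars are 95% intervals, filled points passed an adjusted p of 0.05, and dotted lines mark the median over all 25629 probes (-0.177 and -0.272). The 3 Tbpl1 probes, Tex19, the brighter Sdad1 probe and the dimmer Cdc25a probe stand furthest to the right in both comparisons, while the other Sdad1 probe and both Cdc25c probes do not stand above 0 beyond their interval.

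Counted over probes, V5 exceeded IgG at 8 of 13 member probes (61.5%) and was lower at 0 by limma, where 53.4% of all probes were called, 17.8% as higher and 35.6% as lower. At an unadjusted p under 0.05 the count of lower member probes was 0 as well. With GFP 9 of 13 (69.2%) were higher and 1 was lower, where 70.4% of all probes were called, 23.6% as higher and 46.8% as lower. Both arrays of V5 lay above both of IgG at 9 member probes and below at 1, against 25.7% and 52.7% of all probes; for GFP the counts were 9 and 2, against 28.6% and 56.4%. The median of the 13 was 0.49 with V5 and 0.62 with GFP. Taking only the brightest probe of each gene, 5 of 8 genes passed as higher with V5 and 6 of 8 with GFP, with medians of 0.48 and 0.54. Both comparisons share the IgG arrays, so their values are not independent. Without IgG replicate 2 the V5 count was 5 of 13. Fewer of all probes passed there as well. With normexp background correction the V5 count was 0 of 13 by limma, with 5 at an unadjusted p under 0.05, in a setting where limma called 0 of all probes. The share of all calls that were higher went from 33.3% to 90.4% for V5 and from 33.5% to 83.9% for GFP with spike-in scaling. Then 12 and 11 of the 13 member probes were higher, beside 9883 and 11138 of 25629 probes in all.

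**Figure D3:**
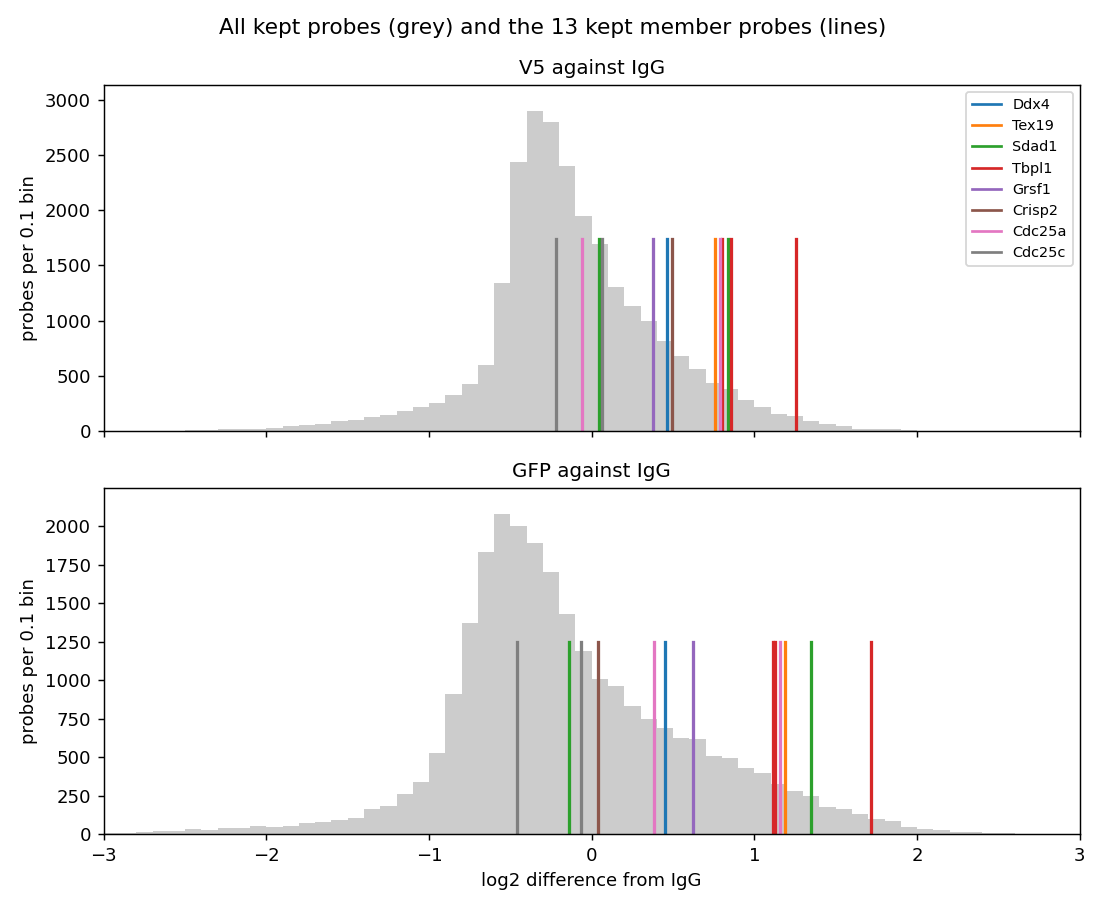
Number of kept probes per 0.1 bin of log2 difference from IgG, for V5 (top) and GFP (bottom), with the 13 member probes as lines coloured by gene and drawn to a fixed height. The bulk of probes lies below 0, and the lines of the 3 Tbpl1 probes, Tex19, the brighter Sdad1 probe and the dimmer Cdc25a probe lie in the right tail, at percentiles 93.6 to 98.7.

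Markers of cell types moved with the same comparisons. The summed signal of 4 spermatogonial markers was 38.9 to 39.1 times the 75th percentile with IgG, 70.1 to 70.8 with V5 and 87.6 to 98.5 with GFP. In input it was 78.9 to 79.8, so IgG and V5 lay below input. The sum of 8 Sertoli markers was 183 to 184 with IgG, 134 to 141 with V5 and 118 to 125 with GFP, and 215 to 220 in input. The 5 spermatocyte markers summed to 24.6 to 25.5 with IgG, 26.2 to 27.5 with V5 and 23.3 to 24.3 with GFP, far below the 54.5 to 57.1 of input. On this scale the 6 kept markers of late spermatocytes and spermatids were lower in the precipitates of the fusion, at 107 to 109 with IgG, 83.2 to 84 with V5 and 59.8 to 67.6 with GFP. Their sum in input was 95.5 to 105. Leydig markers (26.5 to 28.6 with IgG, 19.7 to 20.5 with V5, 16.9 to 19.8 with GFP) and myoid markers (31.9 to 37.1, 22.3 to 24.7 and 18.6 to 19.5) were lower than with IgG too. In input these read 24.7 to 25.3 and 74.3 to 76.6. The leukocyte, endothelial and erythroid sums were lower with V5 and GFP than with IgG as well. All these sums were made only with the 75th percentile as the scale. Spike-in scaling moved all probes up against IgG, their median from -0.177 to 0.218 with V5 and from -0.272 to 0.246 with GFP. A sum that is lower than with IgG here need not be lower on that scale. These sums describe the RNA recovered in each group and do not count cells. The part of these shifts in the member results was not tested.

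Against input RNA the members fell into 2 sets. Tex19, Tbpl1 (3 probes), Cdc25a (2 probes) and the brighter Sdad1 probe were higher with V5 and with GFP, and Ddx4, Grsf1, Crisp2, both Cdc25c probes and the other Sdad1 probe were lower, which gave 7 higher and 6 lower of 13 in each comparison. All 13 were called in both, and at all 13 the arrays did not overlap; with quantile normalization 7 were higher and 5 lower in each, Cdc25c probe A_51_P279575 having lost its call. Among all probes 72.4% were called with V5, 34.8% as higher and 37.6% as lower, and 74.4% with GFP, 34.5% as higher and 39.9% as lower. The arrays lay apart upward at 42.4% and downward at 46.8% of all probes with V5, and at 41.6% and 48.4% with GFP. With spike-in scaling the counts were 3 higher and 6 lower with V5, and 7 and 6 with GFP. Of all 25629 probes 18955 were then called with V5, 4557 as higher, and 19143 with GFP, 5753 as higher. The share of all calls that were higher then went from 48.1% to 24% and from 46.4% to 30.1%.

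The mock precipitate was itself far from input: 3 member probes were higher with IgG (Tex19, 1 of Tbpl1, 1 of Cdc25a) and 8 were lower, where 73.2% of all probes were called, 40.2% as higher and 33% as lower. The arrays lay apart upward at 4 members and downward at 9, against 48.7% and 38.3% of all probes. With spike-in scaling 1 was higher and 10 were lower, where 19750 of all 25629 probes were called, 2814 as higher. The probes that were lowest in the mock relative to input were the second Sdad1 probe (-2.07 ± 0.075), Crisp2 (-2.07 ± 0.20), Ddx4 (-1.61 ± 0.16) and Grsf1 (-1.27 ± 0.094). Each of these 4 was also lower than input with V5 and with GFP, and of them Ddx4 and Grsf1 were higher than IgG.

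**Figure D4:**
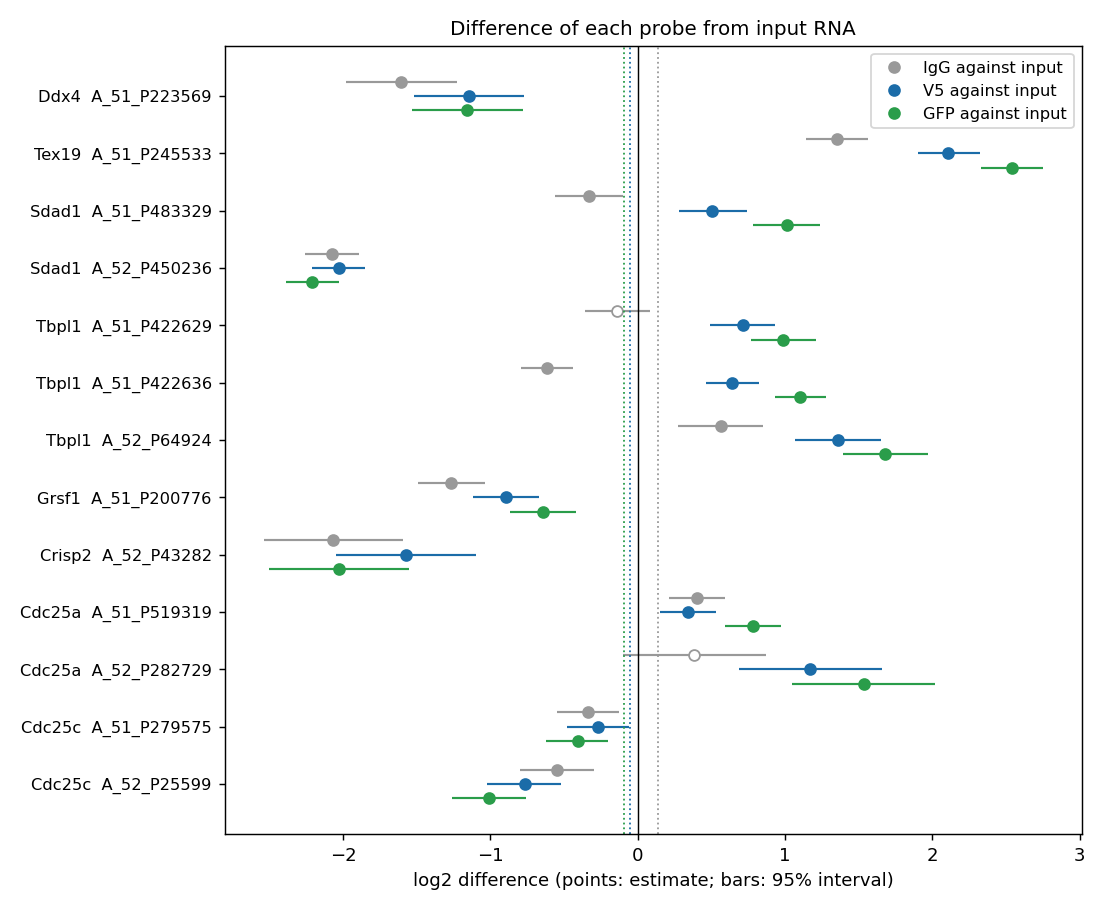
Log2 difference of each kept probe from input RNA for the IgG, V5 and GFP precipitates; bars are 95% intervals, open points did not pass an adjusted p of 0.05, and dotted lines mark the medians over all probes. Tex19 is above input in all 3 precipitates, and Ddx4, Grsf1, Crisp2 and the second Sdad1 probe are below it in all 3, whereas the first Sdad1 probe and the second Tbpl1 probe are below input with IgG and above it with V5 and GFP.

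Whether probes of a gene changed by unequal amounts was tested on the difference between the brightest probe and each other probe within an array, a quantity from which the scaling between arrays drops out (but not quantile normalization). The Sdad1 probes differed in their change by 0.79 ± 0.09 with V5 against IgG (adjusted p = 0.00701) and by 1.48 ± 0.09 with GFP (adjusted p = 0.000467), the brighter probe rising more. The Cdc25a probes differed by -0.85 ± 0.20 (adjusted p = 0.0415) and -0.77 ± 0.20 (adjusted p = 0.0323), here with the dimmer probe rising more. That dimmer probe was among the faintest kept, at mean percentile 4.8 of signal in input and 9.6 with IgG. The array assigns it to the RefSeq transcript and the brighter Cdc25a probe to another sequence record. For Tbpl1 the second probe rose more than the brightest with GFP (-0.59 ± 0.11, adjusted p = 0.0102), a difference that did not pass with V5 (-0.40 ± 0.11, adjusted p = 0.0592), and the third probe did not differ from the brightest beyond its error (0.056 ± 0.12 and 0.013 ± 0.12). The Cdc25c probes differed with GFP (0.39 ± 0.093, adjusted p = 0.0254) but the difference did not pass with V5 (0.28 ± 0.093, adjusted p = 0.102).

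In all, 2 of 5 member pairs passed with V5 and 4 of 5 with GFP, where 14% and 27.8% of the 8036 pairs on the array did. Both Sdad1 calls held with each array left out. Those of Cdc25a ended in 6 of 8 omissions with V5 and in 5 of 8 with GFP, those of Cdc25c with GFP in 3 of 8 and that of Tbpl1 with GFP in 1 of 8.

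The V5 and GFP precipitates target the same fusion through its 2 tags and lie on the same slide. Of the 13 probes 4 were lower with V5 than with GFP, where 6.77% of all probes were, and 0 were higher, where 4.71% were and 11.5% were called in all. With spike-in scaling the member counts were the same. Of all 25629 probes 3026 were then called, 185 as higher, and the share of all calls that were higher went from 41% to 6.11%. At an unadjusted p under 0.05 there were 8 in either direction. The arrays lay apart upward at 4 and downward at 7 member probes, against 41.2% and 28.2% of all probes. The 4 called as lower were Tex19 (-0.43 ± 0.088, adjusted p = 0.0381), the first Sdad1 probe (-0.51 ± 0.095, adjusted p = 0.0343), the second Tbpl1 probe (-0.46 ± 0.074, adjusted p = 0.0312) and the first Cdc25a probe (-0.44 ± 0.078, adjusted p = 0.0324). Ddx4 did not differ beyond its error (0.011 ± 0.16, 95% interval -0.37 to 0.39), and Crisp2 (0.45 ± 0.20, interval -0.02 to 0.93) did not pass. All 4 calls ended when any V5, GFP or input array was left out, where few of all probes passed for this comparison. They also ended with the replicate number as a block, with no filter, with normexp, or when only the V5 and GFP arrays were fitted. In these 4 settings 0 of 13 probes passed in limma, with 8, 5, 3 and 8 at an unadjusted p under 0.05. Of all probes limma then called 2 of 25629 with the block, 6 of 41174 with no filter, and 0 of 25629 in each of the other settings.

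Other transcripts reported as bound by Dazl gave the following values. Dazl's own transcript was higher with V5 than with IgG at both probes (0.86 ± 0.16 and 0.98 ± 0.15) and lower than in input (-1.06 ± 0.16 and -1.09 ± 0.15), the same direction as Ddx4 and Grsf1. With GFP both probes were higher than with IgG too (1.63 ± 0.16 and 1.49 ± 0.15). Against input only the second passed as lower with GFP (-0.58 ± 0.15, adjusted p = 0.012), and the first did not pass (-0.30 ± 0.16, adjusted p = 0.134). Sycp3, of the synaptonemal complex, was 1.45 ± 0.20 above IgG with V5 and -3.48 ± 0.20 against input, a wider gap than any of the 13 member probes. The spindle protein gene Tpx2 did not pass against IgG (-0.23 ± 0.13 with V5, adjusted p = 0.181), and the spindle checkpoint kinase gene Bub1b was lower (-0.28 ± 0.069, adjusted p = 0.0156). Of these 5 probes of 4 genes 3 were called higher and 1 lower with V5, and likewise with GFP; among all probes the shares were 17.8% and 35.6% with V5, and 23.6% and 46.8% with GFP.

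Relatives of the members by family, which were not on the list of reported targets, also included higher probes. Of 13 kept probes of 7 such genes 6 passed limma's test as higher than IgG with V5 and 9 with GFP, against 17.8% and 23.6% of all probes. In either comparison 0 passed as lower, also at an unadjusted p under 0.05, against 35.6% and 46.8% of all probes, and the medians were 0.31 and 0.51. Both probes of Tbp, the general transcription factor related to Tbpl1, were higher with V5 (1.22 ± 0.094 and 1.17 ± 0.16), and those of Hnrpf, Hnrph1 and Hnrph2, the hnRNP genes of the family of Grsf1, ranged from 0.57 to 1.23. The 3 Cdc25b probes (0.064, 0.13 and -0.15) and the 3 of Ddx3x (0.20, 0.26 and 0.034), an X-linked helicase gene related to Ddx4, did not pass with V5, nor did the single kept probe of Ddx3y (0.31). Probes for Crisp1, Crisp3 and Crisp4 were not kept.

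The genes whose signal over the 8 arrays was most like that of a member were found by Pearson r among 12238 named genes, as a description, since all points share the same arrays, groups and slides. For Tex19 they were Ipmk (r = 0.999) and Bcl6b (0.998), for Tbpl1 Sumo2 (0.999) and Eef1e1 (0.998), and for Sdad1 Rpp14 and Hus1 (0.997 each). Ddx4 was most like Ankrd32 (0.999) and Ankrd57 (0.998), and Grsf1 like Iqcb1 and Kpna2 (0.998 each). For Crisp2 they were Osgepl1 (0.995) and Fahd1 (0.994), for Cdc25a Rtn1 (0.987) and Atp6v1b2 (0.982), and for Cdc25c Daf2 (0.971) and Spast (0.966).

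In the authors' deposited table, which gives means of median-normalized signal for input, V5 and GFP but none for IgG, the members have 14 entries. For Tex19 the log2 ratio to input in the authors' deposited table was 2.4 with V5 and 2.91 with GFP. For Ddx4 it was -0.88 and -0.87, for Grsf1 -0.64 and -0.38, and for Crisp2 -1.26 and -1.7 in the authors' deposited table. The Sdad1 entries of the authors' deposited table parted in the same way as the probes, with 0.77 and 1.36 for one and -1.75 and -1.94 for the other. The Cdc25c entries of the authors' deposited table were -0.5 and -0.75 for one and only -0.01 and -0.11 for the other. Those of Cdc25a and of the RefSeq transcript of Tbpl1 were positive with both. In each of these the sign against input was that of the fit to the single arrays. The authors' means describe the same input, V5 and GFP groups, so they are not a separate test.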

How the data were processed

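The members and gene lists were chosen with earlier results of these data known. The deposited intensity values (processed signal, and mean and local background signal) come, per the file headers, from version 9.1.3.1 of Agilent's Feature Extraction, where spatial detrending and surrogate values for the dimmest spots were switched on, and no scaling between arrays is recorded. The authors' deposited table holds signal values normalized to the median in GeneSifter, per its comment lines; 6 of its columns were not used. Here log2 of the processed signal minus each array's 75th percentile was taken. Spots of a probe were averaged and outlier spots left out (0 of the members'). A probe was kept where both arrays of some group read it as well above background, which left 25629 in all and 13 of 14 member probes; 0 member spots were saturated.

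limma 3.58.1 (R 4.3.3) fitted group means per probe to all 8 arrays by lmFit and eBayes, with 4 residual and 2.36 prior degrees of freedom, two-sided; p-values were adjusted by Benjamini-Hochberg across the kept probes, at a threshold of 0.05. Every adjusted p is limma's, and SE is that of its moderated test. The spread is pooled over groups, so the SE of comparisons with IgG, whose replicates differ most, may be too small. The small number of arrays, 2 in each group, limits precision. Differences within 8036 probe pairs were fitted likewise. The text names every member probe, 5 probes of other reported targets, relatives by family, and the 2 genes most like each member. Symbols were checked against RefSeq of assembly GRCm38.p6. Replicate numbers were not used to pair the samples. Deviations of equally numbered arrays correlated at -0.091 to 0.094 between groups, which with 2 arrays in each group cannot show whether equally numbered samples shared a source. The fit was run on 25597 simulated probes for V5 against IgG, with 50 changed at each of 4 sizes. It recovered 8 of 50 changes of 0.5 on the log2 scale, 35 of 50 of 1, 39 of 50 of 1.5 and 48 of 50 of 2. It also called 12 unchanged probes. Far fewer probes were changed there than the 53.4% called in the data, so these counts do not give the error rates of the real comparison. A probe that did not pass may still differ by a small amount. In all 18 alternatives were run, 17 of them planned and 1, subtraction of the local background, added after seeing the data.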

Additional observations from a re-analysis of the deposited data

How the results depend on the processing

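Over 18 alternatives and all comparisons, 1262 of 1404 values of member probes kept their side of the threshold and, where called, their direction. Values without a call in either fit count as kept. Alternatives that changed only the variance model, the filter or arrays outside a comparison left the estimate, and so its direction, unchanged. Of the rest 119 lost and 12 gained a call. The remaining 11 changed sign and were called in the fit as reported, in the alternative or in both. Counts of member probes called, of 13, changed most with normexp background correction, where 0 passed for V5 against IgG (8 in the fit as reported), 5 for GFP against IgG (10), 6 for IgG against input (11), 6 for V5 against input (13), 8 for GFP against input (13) and 0 for V5 against GFP (4), and 0 probe pairs for either tag (2 with V5, 4 with GFP); at an unadjusted p under 0.05 limma then gave 5 for V5 against IgG, 3 for V5 against GFP, and 0 and 1 pairs. Of all 25629 probes limma then called 0 for V5 against IgG, 3572 for GFP against IgG and 0 for V5 against GFP. Against input it called 7914 with IgG, 6511 with V5 and 7238 with GFP. The normexp fit placed the background of V5 replicate 2 at -391 and of V5 replicate 1 at -13.7. It placed that of GFP replicate 2 at -333 and of GFP replicate 1 at -12.4. On the input and IgG arrays it lay between -92.5 and -10.9. With local background subtracted in its place, chosen after seeing the data, 8 probes passed for V5 against IgG, 7 of them as higher: Cdc25a probe A_52_P282729 lost its call (0.31) and Cdc25c probe A_52_P25599 passed as lower (-0.26). Without input replicate 2 and V5 replicate 1 together the counts were 4 for V5 against IgG, 0 for V5 against GFP, and 0 and 2 pairs with V5 and GFP (unadjusted 6 for V5 against GFP and 3 pairs with V5). In that setting far fewer of all probes passed as well for V5 against IgG and for V5 against GFP. With only the arrays of the groups compared 0 passed for V5 against GFP (8 unadjusted), where 0 of all 25629 probes passed, and 0 (4 unadjusted) and 2 pairs. With no filter 0 passed for V5 against GFP (5 unadjusted), where 6 of all 41174 probes passed, and 1 and 2 pairs. The replicate block gave 0 for V5 against GFP (8 unadjusted), where 2 of all 25629 probes passed, and 1 pair with V5. It moved no other count by over 1.5 times, and the samples share only a number. With 1 array left out the counts ran from 5 to 9 for V5 against IgG, 9 to 10 for GFP against IgG, 10 to 11 for IgG against input, 11 to 13 for V5 against input, 13 to 13 for GFP against input and 0 to 4 for V5 against GFP, and pairs from 1 to 2 with V5 and 2 to 4 with GFP.

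Spike-in scaling reversed Cdc25a probe A_51_P519319 for IgG against input (-0.43), V5 against IgG (0.34) and V5 against input (-0.088), Cdc25c probe A_51_P279575 for GFP against IgG (0.45), Cdc25c probe A_52_P25599 (0.055) and Sdad1 probe A_52_P450236 (0.38) for GFP against IgG, and Tbpl1 probe A_52_P64924 for IgG against input (-0.26). Normexp reversed Cdc25c probe A_51_P279575 for V5 against input (0.029) and A_52_P25599 against input for GFP (0.20), IgG (0.34) and V5 (0.37), and the Cdc25a pair with GFP (0.034). A shift common to all probes is part of the spike-in scaling itself; for the other changes the cause was not tested.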
